A study of Mus musculus with 19 samples.

Results

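The cells described here are macrophages of the mouse extremity that carried UMIs of Folr2, a folate receptor, and of Mrc1, the mannose receptor CD206. They were chosen by measured values. A barcode entered if 500 or more genes were detected, mitochondrial transcripts made up no more than 25% of its UMIs, and it held at least 1 UMI of Csf1r, the receptor for macrophage colony-stimulating factor, at least 1 UMI of Folr2, at least 2 UMIs of Mrc1 and no UMI of Pdgfra, a stromal receptor, beside a further limit described with the processing. Of 39541 cells in 19 libraries, 2939 met the rule. These made up part of the 15313 cells with Csf1r and without Pdgfra, and the other 12374 of those cells are called the other Csf1r cells below.

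The libraries were made by droplet single cell RNA sequencing of the injury site in the burn/tenotomy model of heterotopic ossification, in which a dorsal burn over 30% of the body surface is joined to a cut of the Achilles tendon and bone later forms in the soft tissue. Tissue was taken at day 0 (4 libraries, described by the study as before injury although the labels give all libraries the burn), day 3 (3 libraries), day 7 (4 libraries), day 21 (4 libraries), and after the peptide p7N3, which activates CD47 (4 libraries, 10 mg/kg given daily for 3 days before and 3 days after injury, with replicates 1 to 3 taken at day 7). The labels give p7N3 replicate 4 no day, and a vehicle for the day 7 mice is not named in them. The study used young adult male C57BL/6J mice, and the labels name C57 and LysmCre/Tgfb1fx/fx mice, the latter with a Cre driven in the myeloid lineage, without tying either to a library. All values are from a site that was dissociated, and nothing in the labels says whether libraries of a group came from separate mice, so that p-values measure the spread between libraries.

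Many tissues hold macrophages that settle there before or after birth and live beside vessels and nerves. Those marked by Folr2, Lyve1, Timd4 and Cd163 are known for clearing dead cells, hemoglobin and hyaluronan, and they renew themselves with little help from blood monocytes. After injury, monocytes that carry Ccr2 enter the tissue and can take on some of the same surface markers as they mature, while macrophages that have taken up lipid and debris raise Trem2, Gpnmb, Spp1 and lysosomal genes. Shared markers alone therefore do not tell long-lived cells from newly arrived ones.

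The rule gave 74, 48, 55 and 52 cells in the 4 libraries of day 0. It gave 202, 316 and 114 cells at day 3, 266, 210, 278 and 196 at day 7, 105, 70, 72 and 79 at day 21, and 211, 297, 138 and 156 with p7N3. The UMIs summed over these cells ranged from 177253 to 329404 in the day 0 libraries. The ranges were 1583197 to 4455253 for day 3, 1394759 to 1945797 for day 7, 624733 to 834663 for day 21, and between 907799 and 1784096 for p7N3. Day 0 was thus the shallowest group and its rare transcripts the least precise. A median cell held 3889 UMIs at day 0, 13460 at day 3, 6072 at day 7, 7944 at day 21 and 6160 with p7N3, and a rule counted in UMIs takes in more cells where cells are deep.

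As a share of the cells with Csf1r, these macrophages were the majority before injury and a minority afterwards. The share was 50.3%, 64.0%, 55.6% and 57.8% in the day 0 libraries. At day 3 it was 13.7%, 21.2% and 8.82%, and at day 7 it was 18.6%, 16.8%, 24.5% and 15.4%. It was 41.8%, 40.9%, 43.6% and 27.2% at day 21, so that no injured library reached the lowest day 0 library. Exact binomial 95% intervals, which cover counting error only, ran from 42.0% to 58.7% in day 0 replicate 1 and from 22.2% to 32.8% in day 21 replicate 4. The mean fell by 42.3 percentage points from 56.9% ± 5.66 (SD, n = 4) at day 0 to 14.6% ± 6.23 (n = 3) at day 3, with an exact two-sided permutation p of 0.0571, the smallest that 3 against 4 libraries allow, and 0.0762 after adjustment over 4 comparisons. It was 18.8% ± 4.03 at day 7 and 38.4% ± 7.53 at day 21, each with an exact permutation p of 0.0286, the smallest for 4 against 4 libraries, and 0.0571 after adjustment. With p7N3 the share was 16.9% ± 2.99, and it differed from day 7 by less than the spread between libraries (exact permutation p = 0.514).

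**Figure D1:**
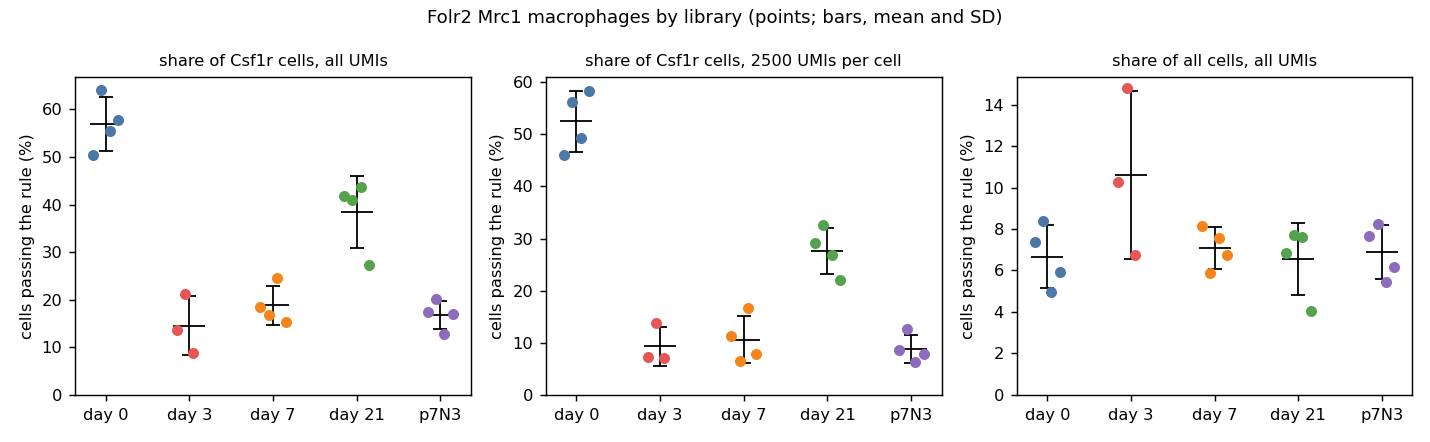
Share of cells that met the rule, in percent, by group, with each point a library and the bars the mean and SD. The left panel gives the share of Csf1r cells, the middle panel the same after thinning each cell to 2500 UMIs and the right panel the share of all cells, and the 4 day 0 libraries lie above all others in the first of these, between 50.3% and 64.0%.

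Counted over all cells, the picture was different. The share of all cells was 6.67% ± 1.53 at day 0, 10.6% ± 4.03 at day 3, 7.09% ± 0.994 at day 7, 6.55% ± 1.72 at day 21 and 6.88% ± 1.3 with p7N3, so that days 3 and 7 were higher than day 0 by 3.93 and 0.419 points with exact permutation p of 0.171 and 0.686. When each cell was first thinned to 2500 UMIs and the rule applied to what was left, the share of Csf1r cells was 52.5% ± 5.77 at day 0, 9.36% ± 3.76 at day 3, 10.6% ± 4.55 at day 7 and 27.7% ± 4.40 at day 21.

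The values just inside and outside the limits are given once. Cells that the further limit removed were counted among the other Csf1r cells. The further limit removed no cell at day 0, 563 otherwise matching cells at day 3, 82 at day 7, 7 at day 21 and 111 with p7N3. Without it the share of Csf1r cells was 24.5%, 35.1% and 24.1% in the day 3 libraries, a mean of 27.9% ± 6.24, and the means were 20.4% at day 7, 39.2% at day 21 and 19.3% with p7N3, so that day 3 was no longer the lowest day. All injured libraries were still below day 0. At day 0, 33 cells held exactly 2 UMIs of Mrc1 and 26 otherwise like cells held 1, and their Cbr2 was 945 and 825 CPM, the UMIs of a gene scaled by all UMIs of the same cells. At day 7, 202 cells held exactly 2 UMIs and 228 held 1, with Cbr2 at 138 and 118 CPM, whereas the 748 cells with 3 or more were at 360 CPM.

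The cells had the markers of macrophages. Adgre1 (F4/80) stood at 323, 292, 315 and 368 CPM at day 0 and between 349 and 451 CPM in the 11 injured libraries of days 3, 7 and 21. The macrophage genes Cd68 and Fcgr1 were present in every library, and the Fc receptor gene Fcgr1 ranged from 58.3 to 122 CPM at day 0 and from 147 to 320 CPM after injury. The 3 markers of the label that the rule did not use were Cbr2, a carbonyl reductase, F13a1, a coagulation factor subunit, and Pf4, a platelet chemokine that tissue macrophages also make. When cells were thinned to 1500 UMIs, F13a1 was found in 90.5% ± 1.09 of the cells at day 0 and in 42.6% to 62.9% in the means of the other groups, against 0.403% to 7.42% of the stromal cells with Pdgfra and no Csf1r in the same libraries. In the other Csf1r cells F13a1 was found in 13.5% to 40.6%. Cbr2 was found in 67.3% of the macrophages at day 0 and 32.1% to 55.1% elsewhere, against 4.58% to 20.8% of the other Csf1r cells and 0.283% to 2.34% of the stromal cells. Pf4 was found in 92.7% to 100.0% of the macrophages, but also in 34.5% to 58.0% of the other Csf1r cells and in 1.70% to 31.5% of the stromal cells, the highest at day 3. The 3 genes were thus found most often in the macrophages in each group mean, while several other genes of resident macrophages, described next, were far lower after injury than at day 0.

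Genes used by the rule are described without a test. Folr2 stood at 1425, 1203, 1617 and 1516 CPM at day 0 and from 411 to 851 CPM in the 11 injured libraries. Mrc1 was 1344 to 1642 CPM at day 0 and 607 to 1042 CPM after injury, and Csf1r 1217 to 1497 CPM against 621 to 1115 CPM. A limit counted in UMIs asks for a higher CPM in shallow cells, and the day 0 cells were the shallowest. The rule thus sets part of these contrasts, and how much was not tested.

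Which genes separated day 0 cells from cells with the same markers after injury was asked with the summed UMIs of each library and edgeR's quasi-likelihood test, with the mean of days 3, 7 and 21 set against day 0. Of 8463 genes tested, 2522 (29.8%) had an adjusted p under 0.05. These were 1286 genes (15.2%) higher and 1236 genes (14.6%) lower after injury, and the median log2 fold change of all genes was 0.00. CPM of 1111 genes (13.1%) did not overlap between the 4 day 0 and the 11 injured libraries, 7.67% of all genes being higher and 5.46% lower. All log2 fold changes below are of the injured mean against day 0 unless a day is named, with the SE and the p adjusted over the 8463 genes.

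The clearest losses were of genes by which resident macrophages are usually known. Timd4, a receptor for phosphatidylserine on dying cells, stood at 125, 132, 110 and 112 CPM in the day 0 libraries. After injury it was 0.971, 1.77 and 0.649 CPM at day 3, 0.535, 4.11, 1.38 and 1.5 CPM at day 7, and 2.43, 7.93, 8.10 and 1.41 CPM at day 21. Every injured library was thus far below the lowest day 0 library, and Timd4 fell by 5.69 on the log2 scale (SE 0.34, adjusted p = 8.36e-12). Lyve1, a hyaluronan receptor, was 1000, 706, 851 and 619 CPM at day 0, and 18.0 to 141 CPM, with a median of 53.1 CPM, after injury. The groups did not overlap, and Lyve1 fell by 3.94 (SE 0.27, adjusted p = 8.17e-11). With cells thinned to 1500 UMIs, Lyve1 was found in 62.9% ± 12.2 of the cells at day 0, 5.87% at day 3, 3.97% at day 7, 10.1% at day 21 and 5.70% with p7N3, against at most 0.464% of the stromal cells in any group. Timd4 was found in 16.8% of the cells at day 0 and in 0.105%, 0.247% and 1.02% at days 3, 7 and 21, which were 1, 2 and 3 cells.

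Retnla, the secreted resistin-like molecule alpha that interleukin-4 induces in macrophages, was the largest loss. It stood at 2524, 5182, 4506 and 4222 CPM at day 0 and at 3.24, 0.221 and 0 CPM at day 3. It was 122, 123, 87.6 and 501 CPM at day 7 and 277, 1141, 89.1 and 296 CPM at day 21, so that every injured library was below day 0, with a wide spread among those of day 21. The fall was 6.37 on the log2 scale (SE 0.59, adjusted p = 1.07e-08). Mgl2, the galactose-binding lectin CD301b, went from 983, 830, 924 and 763 CPM at day 0 to 12.9, 7.73 and 11 CPM at day 3, and it was 180 to 338 CPM at day 21. It fell by 3.98 (SE 0.20, adjusted p = 7.77e-13) and the groups did not overlap.

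The other losses named by the rule for the 10 largest in each direction were Timp4, Barx2, Pla2g2d, Tppp, Enpep, Ptprb and Tmod1. Pla2g2d, a secreted phospholipase of lymphoid and resident macrophages, was 57.8 to 141 CPM at day 0, at most 0.221 CPM at day 3 and 2.82 to 42.1 CPM at day 21. Barx2, a homeobox factor, was 41.0 to 78.8 CPM at day 0 and 0 to 6.17 CPM after injury. Enpep, an aminopeptidase, was 42.0 to 98.7 CPM and 0.649 to 9.09 CPM in the same libraries, Tppp, which stabilizes microtubules, 37.8 to 84.0 CPM and 0.442 to 20.6 CPM, and Tmod1, an actin capping protein, 36.5 to 85.2 CPM and 0 to 15.9 CPM. Timp4 and Ptprb, a phosphatase of vessel lining cells, were higher in the other cells of the day 0 libraries, at 675 and 451 CPM, than in the macrophages, at 69.2 and 131 CPM. For these 2 genes RNA from other cells and RNA made by the macrophages cannot be told apart, and Timp4 had no UMI in the 4 day 7 libraries, so that its fitted change depends on the prior count.

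Gains were led by genes that had few or no UMIs before injury. Il1rn, the antagonist of the interleukin-1 receptor, had no UMI in any day 0 library. It was 160, 166 and 202 CPM at day 3, 70.1, 61.0, 78.7 and 80.2 CPM at day 7, and 23.0, 14.3, 24.3 and 50.7 CPM at day 21. Against a floor of 3 UMIs over the day 0 group (3.07 CPM), the mean of the 3 day means after injury (92.2 CPM) was at least 30.0-fold higher. Spp1, osteopontin, was 0, 13.7, 5.25 and 13.5 CPM at day 0, 760, 808 and 944 CPM at day 3, 1506, 2307, 1838 and 1236 CPM at day 7, and 226, 236, 434 and 400 CPM at day 21. It rose by 6.73 on the log2 scale (SE 0.38, adjusted p = 3.61e-12), with day 7 the highest group. Spp1 was abundant in these libraries as a whole. At 1500 UMIs a cell it was found in 48.3%, 40.4% and 14.8% of the macrophages at days 3, 7 and 21, and in 36.9%, 25.8% and 10.2% of the stromal cells, and how much of it came from free RNA was not tested.

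Gpnmb, a glycoprotein of lysosome-rich macrophages, was 0, 0, 10.5 and 0 CPM at day 0 and 26.7 to 302 CPM, with a median of 69.7 CPM, after injury (log2 fold change 5.50, SE 0.80, adjusted p = 9.40e-06). Fabp5, a fatty acid carrier, was 17.4, 27.3, 68.3 and 49.4 CPM at day 0, 1195 to 1391 CPM at day 3, 1283 to 3118 CPM at day 7 and 537 to 1248 CPM at day 21 (5.16, SE 0.33, adjusted p = 3.56e-11). Both were higher in the macrophages than in the sum of all remaining cells of their highest day, as were Il1rn and Spp1. Among these Fabp5 was also higher than in the other Csf1r cells of that day, at 2309 against 1941 CPM, whereas the other Csf1r cells were the higher class for Spp1 (2800 against 1764 CPM) and Gpnmb (298 against 235 CPM) at day 7 and Il1rn (202 against 180 CPM) at day 3. The other Csf1r cells include those that the further limit removed, so the rule sets part of this order, and how much was not tested. Slpi, an inhibitor of neutrophil proteases, had no UMI at day 0 and was at least 21.3-fold higher on the same floor, also for the mean of the 3 day means (65.5 CPM), with 105 to 203 CPM at day 3 and 1.59 to 8.46 CPM at day 21.

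The gained genes Cthrc1, Postn, Mmp14 and Timp1, which fibroblasts use to build and cut matrix, and Slpi and Clec4d were higher in the other cells of their highest day. Postn was 0 to 5.81 CPM in the day 0 macrophages and 44.1 to 371 CPM after injury, while the other cells of day 7 stood at 3030 CPM, and Cthrc1 at 105 CPM in the day 7 macrophages stood beside 1400 CPM. Clec4d, a myeloid lectin receptor, was 0 to 14.5 CPM at day 0 and 105 to 230 CPM after injury, beside 242 CPM in the other cells of day 3. Over all 425 gained and 297 lost genes that passed the test, did not overlap and reached 50 CPM, 113 and 67 were higher in the other cells of the libraries. The other cells are scaled differently, as described with the processing, so genes of near levels may fall on either side.

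**Figure D2:**
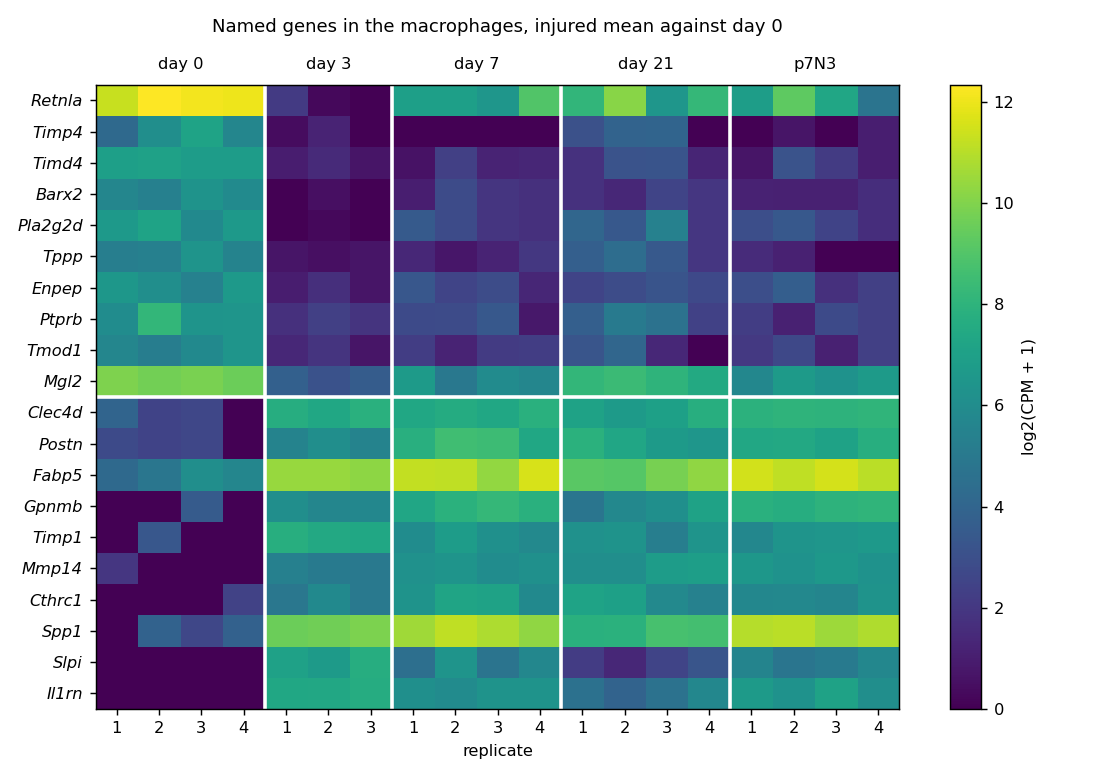
Heat map of log2(CPM + 1) of the 20 genes named for the injured mean, one column per library in groups and one row per gene, lost genes above the line and gained genes under it. Lost genes are brightest at day 0, where Retnla lies between 2524 and 5182 CPM, and gained genes are dark there, Il1rn and Slpi being at 0.

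The promoters of Timd4 and Gpnmb are printed because their genes stood for the loss and the gain, were higher in the macrophages than in all remaining cells together (Gpnmb not than in the other Csf1r cells) and had 1 start in RefSeq. The 250 bases before each start are given 5′ to 3′ on the strand of the gene (RefSeq, GRCm38.p6), for Timd4 chr11:46810549-46810798 and for Gpnmb chr6:49036268-49036517, both on the plus strand. No base is in capitals, since none of 7 motifs searched on both strands matched in either window.
Timd4: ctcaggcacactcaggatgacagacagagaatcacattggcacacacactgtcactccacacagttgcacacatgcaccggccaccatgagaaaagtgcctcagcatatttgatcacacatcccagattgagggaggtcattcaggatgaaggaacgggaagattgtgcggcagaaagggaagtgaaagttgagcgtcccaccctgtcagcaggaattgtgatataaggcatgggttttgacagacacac
Gpnmb: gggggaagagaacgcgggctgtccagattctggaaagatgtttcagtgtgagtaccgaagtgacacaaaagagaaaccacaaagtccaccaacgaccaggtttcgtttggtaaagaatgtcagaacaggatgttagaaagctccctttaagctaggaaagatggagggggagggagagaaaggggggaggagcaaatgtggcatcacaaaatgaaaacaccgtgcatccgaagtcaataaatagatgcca
The motifs were PU.1 (GAGGAAGT, in 2.44% of 32851 promoter windows of this length), AP-1 (TGANTCA, 6.75%), the STAT6 motif (5.85%), C/EBP (TTGCNNAA, 9.56%), the TATA box (TATAAA, 12.4%), the E-box of MITF and TFE factors (CACGTG, 6.02%) and the interferon response element (2.98%). These letters are absent from the 2 windows, and nothing follows from that about the factors.

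Genes of resident macrophages fell together. Of 34 tested genes of a list of such markers, 26 were lower and 2, Ccl8 and Fcrls, were higher after injury, beside 14.6% and 15.2% of all genes, and the median log2 fold change of the list was -1.73. The call of Fcrls was lost with sums thinned to the smallest total (0.25, adjusted p = 0.205). Part of the list was known to mark day 0 cells in these libraries, so that its direction is no independent evidence. The losses included Cd163, the receptor for hemoglobin bound to haptoglobin, from 884, 524, 935 and 1149 CPM at day 0 to 55.5 to 288 CPM, with a median of 126 CPM, after injury (-2.55, SE 0.23, adjusted p = 9.80e-09). They also included the eosinophil chemokine Ccl24 (-3.19), the lectins Cd209d (-3.39) and Clec10a (-1.65), and F13a1, which was 1746 to 2324 CPM at day 0 and 315 to 883 CPM after injury (-1.87, SE 0.13, adjusted p = 9.04e-11). Cbr2 was 762 to 866 CPM at day 0, 405 to 460 CPM at day 3 and 579 to 875 CPM at day 21, where it overlapped day 0 (-0.22, adjusted p = 0.435). Pf4 was 5460 to 8650 CPM at day 0 and 4919 to 7027 CPM after injury (-0.30, SE 0.10, adjusted p = 0.0185), a call lost in several alternatives. The 6 genes of the list that did not pass were Siglec1, Vsig4, Ninj1, Sepp1, Igf1 and Cd5l. Pf4 or the rising Ccl8 led the summed level of the list, which was 29603 to 38581 CPM at day 0, 18935 to 19524 CPM at day 3 and 26324 to 30512 CPM at day 7, so that the sum of day 7 overlapped day 0 while most of its genes were lower.

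Genes that handle lipid and lysosomal load rose. A changed level per cell and a changed number of cells of high level cannot be told apart in these sums. Of 33 tested, 27 were higher and 2 were lower, beside 15.2% and 14.6% of all genes, with a median log2 fold change of 1.24. Trem2, a lipid receptor of phagocytes, was 172, 119, 179 and 98.7 CPM at day 0 and 484 to 1055 CPM after injury (2.32, SE 0.16, adjusted p = 6.15e-11). Ctsd, a lysosomal protease, went from 462 to 506 CPM to 1267 to 2796 CPM (2.08, SE 0.12, adjusted p = 3.61e-12), and Lgals3, galectin-3, rose by 2.40. Apoe, the lipid carrier, was the most abundant gene of the list. It was 12100 to 17192 CPM at day 0 and 13209 to 15919 CPM at day 3, where the test was not passed (-0.00, adjusted p = 0.983), and 34218 to 47732 CPM at day 7 (1.49, SE 0.10, adjusted p = 4.35e-11). The 2 lower genes were the fatty acid transporter Cd36, at 725 to 1009 CPM before and 49.9 to 322 CPM after injury (-2.46, SE 0.15, adjusted p = 8.36e-12), and the fatty acid carrier Fabp4 (-2.62, SE 0.30, adjusted p = 2.79e-07). Both are also genes of capillary cells, and at day 0 the other cells of the libraries stood at 847 and 6211 CPM beside 826 and 621 CPM in the macrophages. These values are scaled differently, as described with the processing, so the order for Cd36 is not settled. The summed level of 8 endothelial genes was 95.9 to 273 CPM in the macrophages of day 0, 33.7 to 54.1 CPM of day 3 and 30.7 to 203 CPM of day 7, and its part in these losses was not tested.

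The list of scavenger and dead cell receptors split evenly, with 8 of 21 higher and 8 lower, beside 15.2% and 14.6% of all genes. Those lower were Timd4, Cd163, Cd36, Colec12, Pros1, Mertk, Gas6 and Stab1. Mertk, a receptor tyrosine kinase for dying cells, was 44.9 to 95.7 CPM at day 0 and 23.9 to 48.0 CPM after injury, with some overlap (-0.93, SE 0.21, adjusted p = 0.00162), and its bridging ligand Gas6 fell by 0.60. The call of Mertk was lost with the rule applied after thinning (-0.73, adjusted p = 0.0529). Those higher were Cd68, Msr1, Havcr2, Cd300lf and the Fc receptors Fcgr1, Fcgr2b, Fcgr3 and Fcgr4. Of 14 complement genes, 5 were higher and 4 lower. C4b, a component of the classical pathway, fell by 2.39 (SE 0.18, adjusted p = 4.39e-10).

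**Figure D3:**
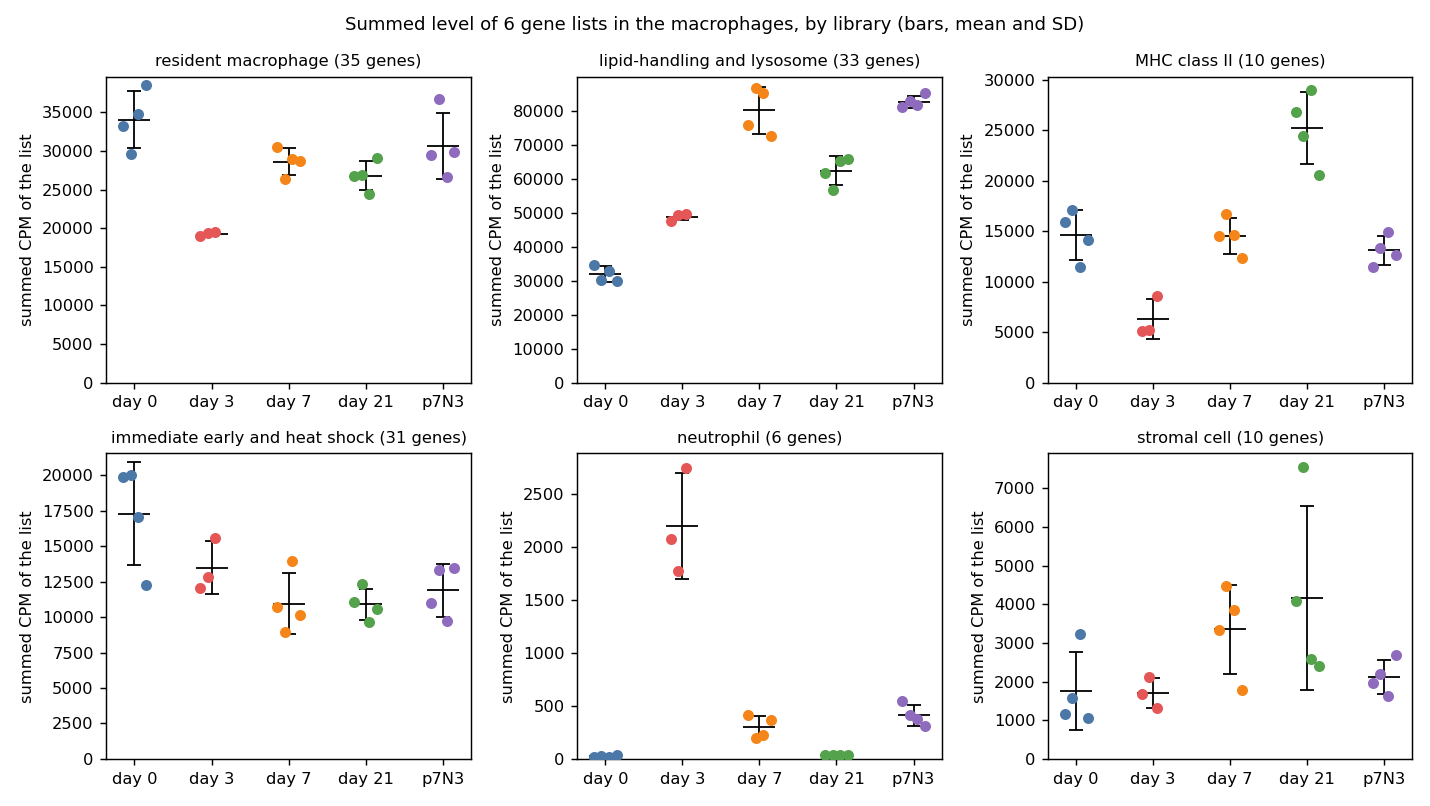
Summed CPM of 6 gene lists in the macrophages, one point per library, with the mean and SD of each group as bars. The lipid and lysosome sum of every injured library lies above day 0, MHC class II is lowest at day 3 and highest at day 21, and the neutrophil sum is highest at day 3, from 1779 to 2751 CPM.

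Of 34 genes of oxidative phosphorylation, 29 were higher and none lower, with a small median of 0.48. That count was 12 to 30 over the alternatives, lowest in cells of 2000 to 8000 UMIs. Of 23 genes of glycolysis and hypoxia 10 were higher and 1, Hk2, was lower, beside 15.2% and 14.6% of all genes. Gapdh went from 206 to 288 CPM at day 0 to 575 to 1172 CPM (1.92, SE 0.14, adjusted p = 2.54e-10). The iron store Ftl1 stood at 7370 to 9144 CPM at day 0 and 13062 to 31747 CPM after injury (1.33, SE 0.08, adjusted p = 8.36e-12), although only 6 of 20 heme and iron genes were higher and 5 were lower. Of 22 cell cycle genes, 9 were higher and none lower, with 0 to 14 higher over the alternatives, the 0 among 6 genes tested in cells of 2000 to 8000 UMIs. At 1500 UMIs a cell Top2a was found in 0.532%, 3.42%, 0.823% and 1.22% of the macrophages at days 0, 3, 7 and 21, and in 11.5% of the stromal cells of day 3.

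Most immediate early and heat shock genes, which respond within minutes to stress and to tissue dissociation, were higher at day 0. Of 30 tested, 22 were lower and 2, Nr4a2 and Dusp2, higher after injury, beside 14.6% and 15.2% of all genes, with a median of -0.73. The summed level of the list was 17067 to 20004 CPM in day 0 replicates 1 to 3 and 12226 CPM in replicate 4. It overlapped later days, with 12815 and 15594 CPM in day 3 replicates 2 and 3. Egr1 was 525 to 1053 CPM at day 0 and 152 to 396 CPM after injury (-1.63, SE 0.21, adjusted p = 1.58e-06), and Klf4 was 480 to 765 CPM and 119 to 337 CPM (-1.44). Over the same libraries the median mitochondrial share of a cell was 4.36% to 4.99% at day 0 and 2.67% to 3.26% elsewhere, and its part in these differences was not tested. Of 44 transcription factors, 7 were higher, a share near the 15.2% of all genes, and 16 were lower, beside 14.6%. Maf, a factor of resident macrophages, was 871 to 1180 CPM at day 0 and 294 to 644 CPM after injury (-1.25, SE 0.10, adjusted p = 1.61e-09), Irf4, a factor of alternative activation, fell by 3.12 from 17.9 to 54.7 CPM to 0 to 9.72 CPM, and the myeloid factor Spi1 (PU.1) rose by 0.74 (SE 0.10, adjusted p = 7.73e-06).

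The TGF beta and CD47 genes that the study turned to were measured in the same cells. Tgfb1, which encodes a latent growth factor, was 189 to 269 CPM at day 0 and 207 to 342 CPM after injury, with overlap (0.32, SE 0.11, adjusted p = 0.0312). That call was lost in 7 alternatives, and the change was 0.12 (adjusted p = 0.573) with the rule applied after thinning and 0.17 with thinned sums. Cd47, the target of the peptide, was 205 to 299 CPM and 336 to 449 CPM (0.72, SE 0.10, adjusted p = 8.32e-06). Sirpa, the receptor of CD47 on phagocytes, rose by 0.96 (SE 0.12, adjusted p = 2.07e-06). Thbs1, thrombospondin 1, a ligand of CD47 and activator of latent TGF beta, was 5.25 to 26.9 CPM at day 0 and 143 to 408 CPM after injury (3.85, SE 0.44, adjusted p = 3.81e-07). The chemokine Ccl8 rose from 1039 to 2643 CPM to 3387 to 11480 CPM (1.98, SE 0.18, adjusted p = 6.89e-09). The other Csf1r cells stood at 202, 335, 229 and 194 CPM of Tgfb1 at days 0, 3, 7 and 21. The interaction test described below was not passed for Tgfb1 (0.17, adjusted p = 0.668).

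Inflammatory and monocyte genes were among those higher at day 3 than at day 0. Against day 0, 3131 genes (37%) passed, 1620 (19.1%) higher and 1511 (17.9%) lower, and 40% did not overlap (22.4% higher, 17.6% lower). Chil3, a chitinase-like protein of monocytes and neutrophils, had no UMI at day 0 and was 250, 185 and 337 CPM at day 3, at least 83.8-fold above the floor, then 1.07 to 6.17 CPM at day 7. Retnlg and Saa3, the other genes of the 5 largest gains besides Il1rn and Slpi, were also at 0 before injury and at least 43.3-fold and 38.3-fold higher at day 3. Of 19 monocyte genes 15 were higher and 2 lower at day 3, against 10 and 3 at day 7, beside 15.2% and 13.5% of all genes, and 5 and 2 at day 21, beside 10.1% and 8.64%. Over the alternatives 1 to 15 were higher and 0 to 3 lower at day 3, the 1 among the 4 genes with at least 10 UMIs in every library, where 3 were lower and the median was -0.64. Ccr2, the chemokine receptor of blood monocytes, was 43.6, 50.1, 47.3 and 40.4 CPM at day 0, 249, 341 and 342 CPM at day 3, 100 to 132 CPM at day 7 and 63.4 to 106 CPM at day 21 (day 3 log2 fold change 2.78, SE 0.21, adjusted p = 5.40e-10). At 1500 UMIs a cell it was found in 5.38% of the macrophages at day 0, 34.1% at day 3, 13.2% at day 7 and 9.79% at day 21, and in 0.0973% to 2.60% of the stromal cells. In the other Csf1r cells the share was 22.2%, 46.8%, 30.3% and 24.3%, so that the macrophages were the lower class in each group mean. The classical monocyte marker Ly6c2 was 0 to 5.81 CPM at day 0 and 118, 44.0 and 40.9 CPM at day 3.

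Of 20 inflammatory mediators 12 were higher and 1 lower at day 3 (3 to 14 and 0 to 3 over the alternatives), beside 19.1% and 17.9% of all genes, with Il1b at 386, 415 and 602 CPM against 0, 91.2, 5.25 and 0 CPM at day 0 (4.41, SE 0.46, adjusted p = 6.21e-08). Of 20 chemokines 13 were higher and 3 lower (8 to 15 and 2 to 4 over the alternatives). Beside these changes the summed level of 6 neutrophil genes was 14.5 to 35.9 CPM at day 0 and 1779 to 2751 CPM at day 3, led by S100a8 at 1100 CPM, while it was 4144 CPM in the other cells of day 3 and Ly6g had no UMI in the macrophages of days 0, 7 and 21. All 4 tested genes of that list were higher at day 3. Chil3, Slpi, Retnlg and Saa3 were higher in the other cells of day 3 than in the macrophages, and the part of neutrophil RNA in the day 3 gains was not tested.

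**Figure D4:**
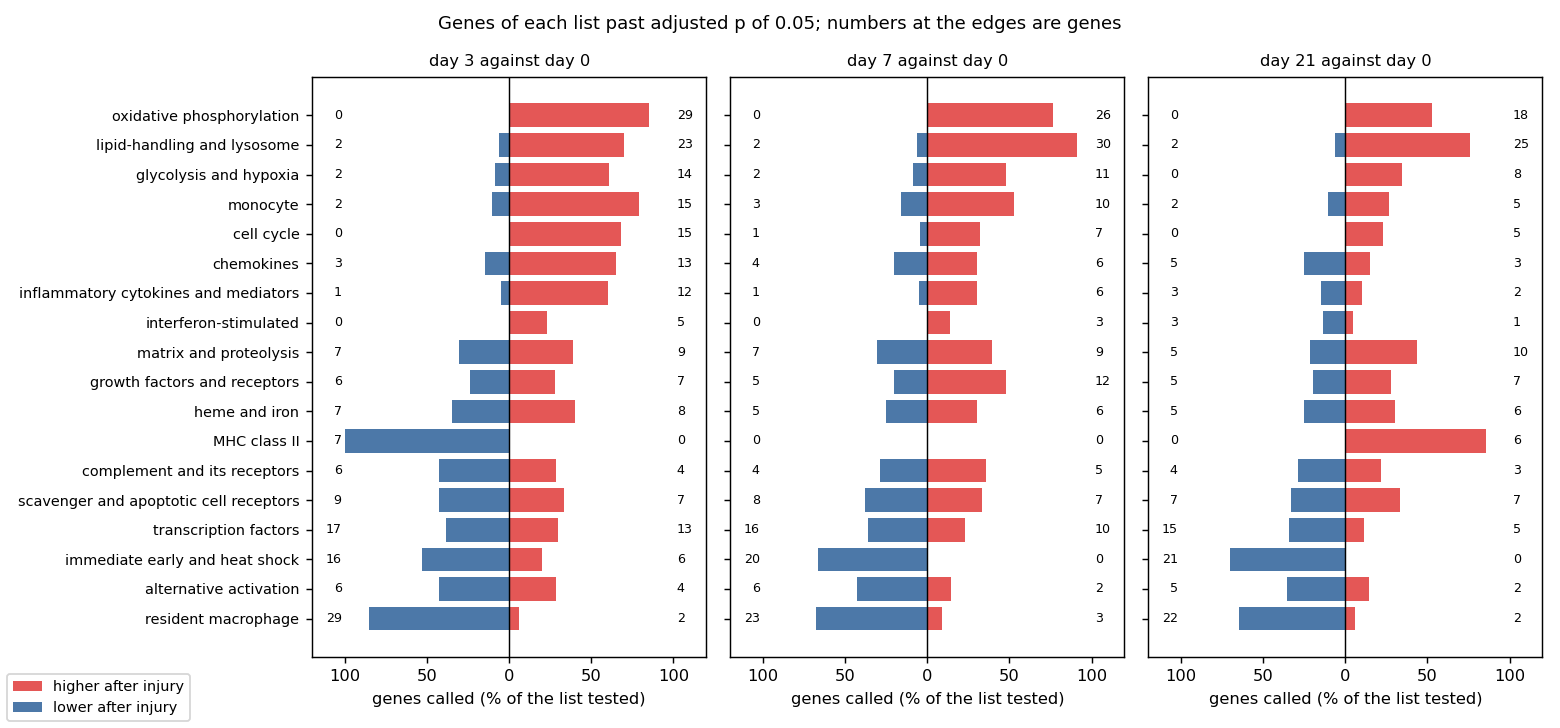
Share of the tested genes of each list, in percent, that were higher (red, right) or lower (blue, left) than day 0 at an adjusted p under 0.05, for days 3, 7 and 21, with the number of genes at the edges. The resident macrophage list has 29, 23 and 22 lower genes, and MHC class II turns from 7 lower genes at day 3 to 6 higher genes at day 21.

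Genes of MHC class II, which present antigen, first fell and then rose. H2-Aa was 2707, 2908, 1990 and 2521 CPM at day 0, and 878, 955 and 1509 CPM at day 3. It was 2219 to 2910 CPM at day 7, overlapping day 0, and 4971, 4538, 5364 and 3947 CPM at day 21. Day 3 lay below and day 21 above every day 0 library, with log2 fold changes of -1.19 (SE 0.16, adjusted p = 2.65e-06) and 0.89 (SE 0.14, adjusted p = 9.28e-05). All 7 tested genes of the group were lower at day 3, none passed at day 7 and 6 were higher at day 21, with medians of -1.20, -0.01 and 0.68. Of all genes 17.9% were lower at day 3, 15.2% higher and 13.5% lower at day 7, and 10.1% higher at day 21. The invariant chain Cd74 followed the same order, at 5850 to 8204 CPM, 2575 to 4438 CPM, 6061 to 8485 CPM and 9563 to 13602 CPM. The summed level of 7 dendritic cell genes was 142 to 241 CPM at day 0, 15.2 to 32.4 CPM at day 3, 21.3 to 59.2 CPM at day 7 and 52.2 to 89.1 CPM at day 21, led by Cd209a at 124 CPM at day 0 and 56.7 CPM at day 21. Of that list Flt3, Xcr1 and Clec9a were at 0 in the day 0 cells, and Flt3 and Xcr1 at day 21. The sum was thus also lowest at day 3, but at day 21 it lay below every day 0 library, and its part in the MHC levels was not tested. The other Csf1r cells stood at 3088, 2152, 4381 and 3832 CPM of H2-Aa at days 0, 3, 7 and 21, so that a fall and a later rise were seen there too. The interaction test described below was not passed for H2-Aa (-0.10, adjusted p = 0.864).

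At day 7, 2426 genes (28.7%) passed against day 0, 1285 (15.2%) higher and 1141 (13.5%) lower, and 29% did not overlap (16.6% higher, 12.4% lower). The 5 largest losses were Timp4, Timd4 (-5.98), Tppp (-4.86), Lyve1 (-4.64) and Ptprb (-4.46). The 5 largest gains were Il1rn, H19, C1qtnf3, Spp1 (7.88) and Gpnmb (6.74), of which Il1rn, H19 and C1qtnf3 had no UMI at day 0. H19, an imprinted non-coding RNA of growing tissue, and C1qtnf3, a secreted protein of the C1q family, were at 70.8 and 56.7 CPM in the macrophages and at 650 and 647 CPM in the other cells of day 7. Of the lipid and lysosome list 30 of 33 genes were higher and 2 lower at day 7.

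Cells of day 21 were closer to day 0 in some genes and not in others. Against day 0, 1586 genes (18.7%) passed, 855 (10.1%) higher and 731 (8.64%) lower, and 19.6% did not overlap (11.5% higher, 8.14% lower). Timd4 (-4.65), Barx2 (-4.23), Cd209b (-4.08), Enpep (-3.62) and Lyve1 (-3.25) were the largest losses. Cd209b, a lectin of marginal zone macrophages, was 119 to 278 CPM at day 0 and 0 to 25.5 CPM at day 21. The largest gains were Cthrc1, Mmp14, Spp1 (5.47), Postn and Gpnmb (5.06), and the summed level of 10 stromal genes, led by Col1a1, was 1068 to 3235 CPM at day 0 and 2413 to 7558 CPM at day 21, with replicate 2 the highest, beside 71357 CPM in the other cells of day 21. The part of stromal RNA in Cthrc1, Mmp14 and Postn was not tested.

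Against day 7, in the same fit of all groups, 635 genes (7.5%) differed at day 21, 323 (3.82%) higher and 312 (3.69%) lower, and 12.3% did not overlap (5.97% higher, 6.36% lower). A fit of days 7 and 21 alone gave 385 genes. Of 34 resident macrophage genes 11 were higher and none lower at day 21, among them Mgl2, which went from 104, 29.5, 60.0 and 50.2 CPM to 283, 338, 261 and 180 CPM (2.09, SE 0.26, adjusted p = 1.17e-05), Cbr2 (1.11, SE 0.17, adjusted p = 0.000222), Ccl24 (1.45), Lyve1 (1.40, adjusted p = 0.0373) and F13a1 (0.62). The call of F13a1 was lost without day 7 replicate 2 (adjusted p = 0.070) and without day 21 replicate 2 (0.0809), and that of Lyve1 in several alternatives. Over the alternatives 7 to 12 genes of the list were higher and 0 to 6 lower. Timd4 (1.33, adjusted p = 0.29), Retnla (1.12, adjusted p = 0.348) and Cd163 (0.28, adjusted p = 0.675) did not pass. Of 33 lipid and lysosome genes none was higher and 14 were lower (0 to 2 and 7 to 19 over the alternatives), with Spp1 down by 2.41 (SE 0.21, adjusted p = 1.03e-07), Gpnmb by 1.68 and Fabp5 by 1.48, while Trem2 did not pass (-0.13, adjusted p = 0.64). The call of Gpnmb was lost with the rule applied after thinning (-1.15, adjusted p = 0.161). Of 20 inflammatory mediators 10 were lower (2 to 15 over the alternatives) and none higher, with Il1b down by 2.24, and 6 of 7 MHC class II genes were higher. The 5 largest gains by the same rule were AY036118, Aqp1, Tppp3, Mgl2 and Rps12-ps3, and the 5 largest falls S100a8 (-4.97), S100a9 (-4.43), Ifitm1 (-3.41), Spp1 and H19 (-2.25). The call of Ifitm1 was lost in cells of 2000 to 8000 UMIs (-1.45, adjusted p = 0.103). With the rule applied after thinning, Ifitm1 (-1.68, adjusted p = 0.174) and Aqp1 (1.51, adjusted p = 0.0887) lost the call. S100a8, S100a9 and Ifitm1 were higher in the other cells of day 3, where they were highest, and the summed neutrophil genes in the macrophages went from 202 to 418 CPM at day 7 to 33.8 to 40.5 CPM at day 21. Aqp1 was 1924 CPM in the other cells of day 0 beside 294 CPM in the macrophages, and the part of other cells in these changes was not tested. AY036118 lies in a ribosomal RNA sequence and Rps12-ps3 is a pseudogene, so that their reads may belong to other copies.

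With p7N3 no gene (0%) of 8463 had an adjusted p under 0.05 in edgeR's test against day 7, 639 had an unadjusted p under 0.05, and DESeq2 called 2. Other fits called 16 genes with replicates 1 to 3 only, which leaves out the p7N3 library without a day, 20 without day 7 replicate 4 and 176 with no filter on low counts. CPM of 4.28% of the genes did not overlap, 2.3% being higher and 1.97% lower. Spp1 was 2025, 2154, 1479 and 1880 CPM with p7N3 and 1506, 2307, 1838 and 1236 CPM at day 7 (0.13, SE 0.20, adjusted p = 0.948). Lyve1 was 18.8, 95.6, 32.5 and 43.4 CPM against 35.8, 19.2, 53.1 and 18.0 CPM (0.63, SE 0.41, adjusted p = 0.802), and Tgfb1 was 228 to 273 CPM against 207 to 274 CPM (-0.01, SE 0.11, adjusted p = 1). In simulated data of this comparison 84% of genes changed 2-fold were found, and a p that misses the threshold does not show that the groups were alike.

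Whether a change was larger in these macrophages than in the other Csf1r cells was tested as an interaction within libraries. After injury the other Csf1r cells include those that the further limit removed, and their part in the differences was not tested. Of 10972 genes 178 (1.62%) passed, 126 (1.15%) with a larger rise or smaller fall in the macrophages and 52 (0.474%) the other way. Tgfbi, a matrix protein induced by TGF beta, was 816 ± 106 CPM (SD, n = 4) in the macrophages at day 0, 879 ± 73.0 CPM (n = 3) at day 3, 315 ± 38.7 CPM at day 7 and 611 ± 63.6 CPM at day 21. In the other Csf1r cells it was 411 ± 195, 1503 ± 166, 738 ± 139 and 602 ± 103 CPM. The macrophages were the higher class before injury and the lower at days 3 and 7, and the change differed by -1.73 on the log2 scale (SE 0.16, adjusted p = 6.48e-07). Mmp9, a gelatinase, fell from 183 ± 60.2 CPM to 76.6, 15.5 and 31.2 CPM at days 3, 7 and 21 in the macrophages, and the other Csf1r cells went from 51.1 ± 34.3 to 94.0, 165 and 36.1 CPM (-3.55, SE 0.54, adjusted p = 0.000304). Fkbp5, a glucocorticoid-induced chaperone (-2.10), Igfbp4, which binds insulin-like growth factors (-1.65), and Slc43a2, an amino acid transporter (-1.44), were the other 3 of the 5 largest. Tgfbi kept the call in every alternative run and Mmp9 in every one that tested it, which left out at least 10 UMIs in every library, whereas Fkbp5, Igfbp4 and Slc43a2 lost it in at least 1, all of them with the rule applied after thinning.

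Fabp5 rose more in the macrophages (2.34, SE 0.48, adjusted p = 0.00821), from 37.9 to 1358, 2309 and 820 CPM, than in the other Csf1r cells, from 145 to 808, 1941 and 1093 CPM, but the difference was 0.52 (adjusted p = 0.841) with the rule applied after thinning. The call was also lost without day 0 replicate 1, at 1.82, without day 0 replicate 2, at 2.12, with replicates 1 to 3 only and with at least 2 UMIs of Folr2. Timd4 (adjusted p = 0.27), Retnla (0.553), Mgl2 (0.109), Spp1 (0.247) and Trem2 (0.746) did not pass. Retnla was 5815 ± 2895 CPM in the other Csf1r cells at day 0 and 0.120, 144 and 378 CPM at days 3, 7 and 21, so that its loss was seen in both classes. The 5 largest positive differences were in the muscle genes Ckm, Tnnt3, Pgam2, Tcap and Myoz1. Ckm stood at 21.1 CPM in the day 0 macrophages and at 1257 ± 2484 CPM in the other Csf1r cells, and without day 0 replicate 1 its difference was -0.03 and all 5 calls were lost.

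**Figure D5:**
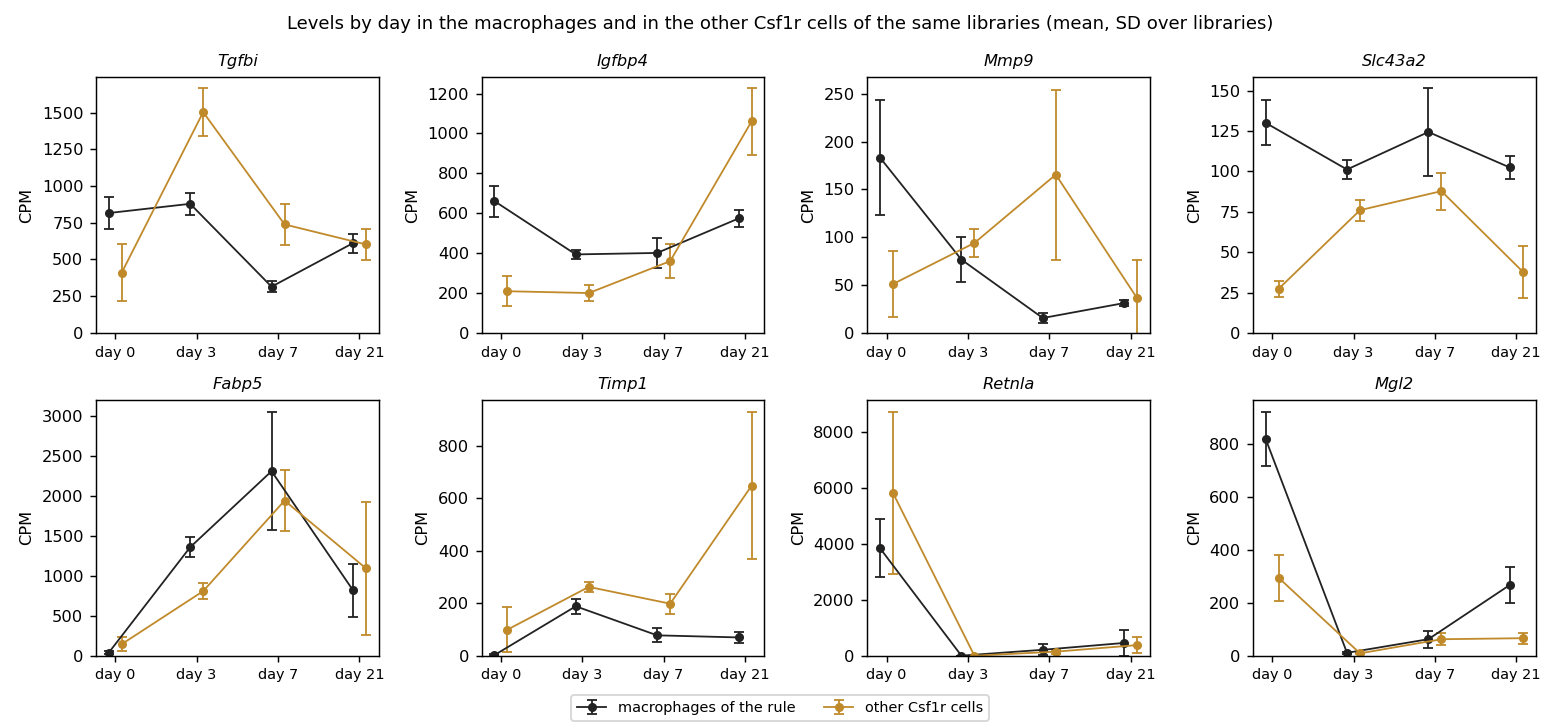
Mean CPM, with the SD over libraries as bars, of 8 genes in the macrophages of the rule (black) and in the other Csf1r cells of the same libraries (ochre), by day. Tgfbi is higher in the macrophages at day 0, at 816 against 411 CPM, and lower at day 3, at 879 against 1503 CPM, whereas Retnla and Mgl2 fall in both.

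The cells of the rule were not all alike. Within each library, cells with a UMI of Lyve1 were compared with those without, as a description. H2-Aa was lower in the cells with Lyve1 in 18 of 19 libraries, with medians over libraries of 1612 and 2483 CPM, and Cd74 in 17 of 19. The size of the H2-Aa difference varied by day. At day 3 H2-Aa was 162, 221 and 150 CPM with Lyve1 and 1248, 1262 and 1698 CPM without. At day 0 it was 2701, 2392, 2042 and 2484 CPM with Lyve1 and 4505, 6341, 2990 and 3633 CPM without. In day 21 replicate 1 it was 4768 and 4950 CPM. Cd163 was higher in the cells with Lyve1 in 19 of 19 libraries, with medians of 450 and 97.7 CPM, and Cbr2 in 19 of 19, with 803 and 346 CPM. Timd4 was higher in 15 of 19, Folr2 in 18 of 19, and Ccr2 was lower in 13 of 19. The cells with Lyve1 had the higher median UMI count in 7 of 19 libraries. For Cd163 and Cbr2 the cells with Lyve1 were thus the higher class in each library. The size of that difference varied between libraries and was small in some of day 0. Over all cells of the rule H2-Aa and Cd74 were below day 0 at day 3 and overlapped it at day 7. Whether a changed number of cells with Lyve1 accounts for any change between days was not tested.

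RNA of other cell types was present in the sums at levels that differed between libraries. Genes of T and NK cells summed to at most 17.3 CPM and those of mast cells to at most 13.7 CPM in any library. Erythroid genes, led by Hbb-bs, summed to 24945 CPM in day 0 replicate 2 and to 630 to 700 CPM in the other 3 libraries of day 0. They reached 11589 CPM in p7N3 replicate 3 and 9239 CPM in day 21 replicate 4, and their part in the results was not tested. Genes of skeletal muscle summed to 137 to 358 CPM at day 0 and 3.24 to 20.1 CPM at day 3. All 5 tested were lower at day 3, beside 17.9% of all genes. Libraries shared at most 22 barcodes, the highest share of the smaller library of any pair was 1.26%, and 999 barcodes were shared over all 171 pairs against 992 expected from the sizes of the lists.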

How the data were processed

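Per the labels and the study's methods, the authors made 10x Genomics libraries and deposited a count matrix for each of the 19, as unnormalized UMIs. The submitters' processing notes name Cell Ranger, Seurat and the builds mm10 and GRCh38. Cells were filtered and chosen by the rule in the report, which also left out cells with a UMI of 1 further gene that is not reported here, with no doublets removed, and their counts were summed per library (at least 10 cells each). The members of the rule and the gene lists were chosen with earlier results of these data known. Sums were tested with edgeR 4.0.16 (quasi-likelihood, TMM factors, filterByExpr, one fit of all 5 groups, Benjamini-Hochberg, threshold 0.05) in R 4.3.3, and the interaction with the library as a block. CPM of the macrophages and of the other Csf1r cells use the TMM factors. Those of all remaining cells, of cells near the limits and of cells split by Lyve1 are scaled by all their UMIs. Scripts ran on simulated data first, where 43.5% of genes changed 2-fold between day 0 and the injured mean were found, 70% between days 21 and 7 and 8% for the interaction, so that day 0 misses more. Shares were compared with exact permutation tests in scipy 1.17.1. Named genes were the 10 largest changes in each direction for the injured mean, and the 5 largest for other comparisons, among genes that passed, did not overlap and had a mean of at least 50 CPM in the higher group, with no overlap rule for the interaction. Alternatives were DESeq2 1.42.0, RLE factors, other filters and gates, Scrublet (scanpy 1.11.5, top 3.9% of scores removed), thinning, and each library left out. Gene positions are those of GENCODE vM21. Selenop is listed under its older symbol Sepp1. Clec7a, Cebpd, Trbc2, Ighm and Itgam are not analysed here.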

Additional observations from a re-analysis of the deposited data

Results flagged for a closer look

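A share or level was marked where 1 library of a group of 4 stood far from the others by Dixon's test, which chance does in about 1 group of 20, and 11 of 96 groups tested were marked. The share of Csf1r cells in day 21 replicate 4 was 27.2%, below 40.9% to 43.6% in the other 3. Retnla in day 7 replicate 4 was 501 CPM, above 87.6 to 123 CPM. Cthrc1 was 4.49 CPM in day 0 replicate 4 with the other 3 at 0, and 80.6 CPM in p7N3 replicate 4. Mmp14 was 2.91 CPM in day 0 replicate 1, Timp1 9.12 CPM in day 0 replicate 2 and Gpnmb 10.5 CPM in day 0 replicate 3, each with the other 3 libraries at 0. These values and Cthrc1 at day 0 lie below the level of 3 UMIs in their library, and with the others at 0 any UMI is marked, so that they are no evidence of an outlying library. Tppp was 84.0 CPM in day 0 replicate 3 and Ptprb 292 CPM in day 0 replicate 2. Barx2 was 2.07 CPM in p7N3 replicate 4 and Tmod1 1.37 CPM in day 7 replicate 2. Both also lie below the level of 3 UMIs in their library, which was 2.94 and 1.91 CPM.

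The injury change differed between the macrophages and the other Csf1r cells, by the interaction test, for the 10 genes named in the report. The differences on the log2 scale were 6.42 for Ckm, 6.16 for Tnnt3, 6.02 for Pgam2, 6.01 for Tcap and 6.0 for Myoz1. They were -3.55 for Mmp9, -2.10 for Fkbp5, -1.73 for Tgfbi, -1.65 for Igfbp4 and -1.44 for Slc43a2. The 5 positive calls were lost without day 0 replicate 1.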

How the results depend on the processing

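The 20 genes named for the injured mean stayed called under every alternative that tested them. With at least 10 UMIs in every library only Mgl2 was tested, Timp4 was not with the rule after thinning, nor Timp4, Barx2, Tppp and Tmod1 with thinned sums. Over all values of named genes 4649 kept their direction and call, 90 lost the call and 3 turned. The 3 were Ckm in the interaction without day 0 replicate 1 (-0.0283, up to 6.94 without day 0 replicate 4), Tcap in the interaction with the rule applied after thinning to 2500 UMIs (-2.37), and Cbr2 at day 21 under that rule (0.137). Pf4, Tgfb1 and Mitf for the injured mean, and Lyve1, Apoe, F13a1 and Ifitm1 for day 21 against day 7, lost the call in more than 1. With at least 10 UMIs in every library, 1290, 1332, 1242 and 960 genes were called for the injured mean, day 3, day 7 and day 21 against day 0. With cells of 2000 to 8000 UMIs these were 1202, 922, 1541 and 443. With the rule after thinning they were 1420, 2006, 1150 and 629, and 235 for day 21 against day 7. With sums thinned to the smallest total they were 1285, 1181, 1106 and 777, and 157. Fewer genes, cells or UMIs entered each of these fits. With replicates 1 to 3 only, day 21 against day 0 gave 1012 calls, and a fit of days 7 and 21 alone gave 385 between them. For p7N3 against day 7, calls were 2 with DESeq2, 1 with RLE factors, 176 with no filter, 1 with 10 UMIs in every library, 16 with replicates 1 to 3, 1 with 1 UMI of Mrc1 and 2 with 2 UMIs of Folr2. Leaving out the further limit of the rule, an alternative chosen after seeing the data, gave 2718, 3454, 2626 and 1685 calls against day 0, 2423, 2999, 2340 and 1490 of them shared, and for the injured mean Spp1 was 7.75, Gpnmb 6.09 and Cd36 -1.85. The interaction gave 311 calls with DESeq2, 422 with no filter, 104 with replicates 1 to 3, 57 with the rule after thinning and 317 with 1 UMI of Mrc1, and the cause was not tested.

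With each library left out in turn, calls ranged from 2012 to 2638 for the injured mean, 2595 to 3246 for day 3, 1939 to 2490 for day 7, 1154 to 1680 for day 21, 415 to 646 for day 21 against day 7 (415 without day 21 replicate 2 and 420 without replicate 1), 0 to 20 for p7N3 (20 without day 7 replicate 4) and 55 to 314 for the interaction (55 without day 0 replicate 1 and 314 without replicate 3). Shares of all cells reversed the difference at day 3 (3.93 points) and day 7 (0.419 points). Libraries with the same replicate number were not seen to vary together (mean correlation of deviations -0.00538, range -0.116 to 0.163, with 3 of 19 correlating best with their own number). So few libraries per group cannot exclude a pairing by number. The replicate block gave 8 calls for p7N3 against day 7 and moved no other count by over 1.5 times. Depth limits the day 0 libraries most.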

Other observations

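Of 22 interferon-stimulated genes tested, 1, Bst2, was higher and 1, Ifi27l2a, lower for the injured mean, against 15.2% and 14.6% of all genes, and 4 (Irf7, Ifi47, Rtp4 and Ifi27l2a) were lower at day 21 than at day 7. These counts depended on the processing, with 0 to 10 genes higher and 0 to 2 lower for the injured mean, 1 to 14 higher at day 7 than at day 0 and 1 to 17 lower at day 21 than at day 7 over the alternatives. Of 23 genes of matrix and proteolysis 8 were higher, among them Adam8 and Mmp19, and 7 lower, among them Mmp9, Timp3, Plau and Cst3. Over the alternatives 0 to 14 were higher and 6 to 8 lower, with medians of -0.74 to 1.42. Of 25 growth factors and their receptors 7 were higher, among them Osm and Grn, and 6 lower, among them Hbegf, Nrp2 and Tgfbr2, with 5 to 12 higher and 2 to 6 lower over the alternatives. Siglech, a lectin known from plasmacytoid dendritic cells and microglia, was 36.8 to 71.8 CPM at day 0 and 0.971 to 11.3 CPM in the 11 injured libraries.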
